A study of Homo sapiens with 8 samples.

Results

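The ARP2/3 complex is described here through its 9 subunit genes, ARPC1A, ARPC1B, ARPC2, ARPC3, ARPC4, ARPC5, ARPC5L, ACTR2 and ACTR3, out of 60234 genes measured. They were taken by symbol. The complex was chosen by the CPM values of ARPC3, which were much higher in siG9a than in control, so the change of ARPC3 is given as a description without a test. The other 8 genes follow from membership of the complex, and the question is whether that rise extended to them. All 9 passed the filter of a mean of at least 1 CPM.

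Gene expression was measured in Rh41, a human line established from alveolar rhabdomyosarcoma, a tumour of the skeletal muscle lineage. All libraries carry the label of a line positive for the PAX3-FOXO1 fusion. The 4 control libraries are labelled only as control for the knockdown, and the 4 siG9a libraries as a knockdown of G9a, the histone H3 lysine 9 methyltransferase encoded by EHMT2. The design text calls the 4 libraries of a group biological replicates, so p-values measure the spread between replicates of 1 line. The series title writes shG9a where the samples write siG9a, and the labels give neither the reagent nor the time after knockdown.

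The ARP2/3 complex binds the side of an existing actin filament and starts a new filament there as a branch. Branched networks of this kind push out the leading edge of moving cells, move endosomes, and serve in the fusion of myoblasts. The actin-related proteins ARP2 (ACTR2) and ARP3 (ACTR3) act as the first subunits of the daughter filament. ARPC2 and ARPC4 form the structural core, ARPC1 contacts activators, ARPC3 binds ARP3 and ARPC5 tethers ARP2. Vertebrates have alternative forms of some subunits, ARPC1A or ARPC1B and ARPC5 or ARPC5L, so that complexes of different make-up exist.

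Libraries held 1458825 to 1938665 reads assigned to genes, and values are CPM, the read number scaled to a common library total. In such bulk RNA, fewer cells with a transcript and less of it per cell cannot be told apart. In these 3′ end libraries a gene's value does not scale with its length, so length alone does not bar setting subunits side by side. Other genes in GENCODE 29 cover the 3′ ends of ARPC1A, ARPC1B, ARPC3 and ARPC4, and how shared reads were counted is not stated. Comparisons of level between subunits carry this limit. Reads of 1 library were worth 0.516 to 0.685 CPM each. EHMT2 measured 57.6, 68.1, 87.3 and 88.3 CPM in control replicates 1 to 4 and 19.6, 35.1, 33.1 and 58.5 CPM in siG9a. It was lower in 4 of 4 pairs of equal replicate number. The groups overlapped, with siG9a replicate 4 just above control replicate 1. For EHMT2 the limma adjusted p was 0.000472 with replicates paired by number and 0.191 otherwise. Both replicate 3 libraries stood apart from the others. Their summed level of 6 skeletal muscle markers was 245.5 to 306 CPM, where the other 6 libraries had 917 to 2073 CPM. Their summed level of 5 neural markers, carried by NEFM and NEFL, was 8935 to 9606 CPM, where the others had 184 to 2949 CPM. NEFH and STMN2 were below a mean of 1 CPM, and INA was at most 5.71 CPM in any library. Of the 5 epithelial markers the sum was 44.0 to 75.6 CPM in the replicate 3 libraries and 10.3 to 32.7 CPM in the others. In replicate 3 it was carried mainly by KRT18, at 46.1 CPM in control and 29.1 CPM in siG9a. KRT18 and KRT8 were highest in replicate 3 in both groups, KRT19 in control only and CDH1 in neither. EPCAM was below a mean of 1 CPM. The sum of 5 fibroblast markers was 50.4 to 69.9 CPM in control and 13.1 to 65.4 CPM in siG9a, with DCN and LUM below a mean of 1 CPM. The 4 blood and endothelial markers measured were all below a mean of 1 CPM. The muscle marker sum was lower in siG9a in 4 of 4 pairs, as were 15.3% of single genes tested. DES, CHRNA1, CDH15 and TNNT2 were lower in all 4 pairs, MYOD1 and MYOG in 3. MYOD1, the most abundant of the 6, had means of 658 CPM in control and 599 CPM in siG9a. It was not called (limma adjusted p = 0.935 with replicates paired by number). The share of reads on mitochondrial genes lay between 4.59% and 13.7%, with means of 6.01% in control and 9.21% in siG9a, and was higher in siG9a in 4 of 4 pairs. The part of these differences in the results was not tested, and calls that changed without replicate 3 are named with the genes they concern. The replicate 1 libraries stood apart too, with neural marker sums of 184 and 222 CPM, where replicates 2 and 4 had 1817 to 2949 CPM.

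The promoters of 4 subunits are shown because these genes stood at the ends of the range of changes described next, with ARPC3, ARPC1A and ARPC5L higher and ACTR2 lower in siG9a. Each is the stretch of 250 bases before the RefSeq gene start (GRCh38.p14), 5′ to 3′ on the gene's strand. Capitals mark the GC box GGGCGG and the CCAAT box CCAAT on either strand.
ARPC3 (chr12:110450338-110450587, minus strand): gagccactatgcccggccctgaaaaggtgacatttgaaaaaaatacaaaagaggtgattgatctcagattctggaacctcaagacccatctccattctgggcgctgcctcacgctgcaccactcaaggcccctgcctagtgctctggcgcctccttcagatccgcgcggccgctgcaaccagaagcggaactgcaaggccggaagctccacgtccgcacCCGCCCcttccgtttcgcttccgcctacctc
ARPC1A (chr7:99325648-99325897, plus strand): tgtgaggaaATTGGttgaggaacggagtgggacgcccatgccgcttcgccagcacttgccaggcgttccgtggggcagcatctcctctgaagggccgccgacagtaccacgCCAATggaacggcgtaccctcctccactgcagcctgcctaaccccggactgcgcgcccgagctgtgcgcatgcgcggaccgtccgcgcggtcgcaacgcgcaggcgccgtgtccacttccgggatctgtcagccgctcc
ARPC5L (chr9:124861880-124862129, plus strand): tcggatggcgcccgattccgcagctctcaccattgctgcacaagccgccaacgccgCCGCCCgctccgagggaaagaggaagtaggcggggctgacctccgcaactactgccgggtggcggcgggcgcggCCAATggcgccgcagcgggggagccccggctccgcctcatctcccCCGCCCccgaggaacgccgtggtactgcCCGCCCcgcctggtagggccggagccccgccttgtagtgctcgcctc
ACTR2 (chr2:65227581-65227830, plus strand): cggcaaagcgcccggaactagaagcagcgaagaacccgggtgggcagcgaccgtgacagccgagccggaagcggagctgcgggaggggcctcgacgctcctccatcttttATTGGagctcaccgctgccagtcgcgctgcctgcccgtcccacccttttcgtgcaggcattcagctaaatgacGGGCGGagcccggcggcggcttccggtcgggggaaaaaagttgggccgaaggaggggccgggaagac

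Of the 9 members, 8 matched a promoter in RefSeq, and ARPC1B is named only. A GC box stood in 6 of these 8, where 42.6% of all 35116 promoter windows of this length held one. The ARPC3 window held 1 GC box and no CCAAT box, with 16 CpG dinucleotides at 58.8% GC. The ARPC1A window held 2 CCAAT boxes and no GC box, with 29 CpG. The ARPC5L window held 3 GC boxes and 1 CCAAT box, with 31 CpG, and the ACTR2 window 1 of each, with 27 CpG. A CCAAT box stood in 4 of the 8 windows and in 32.0% of all windows. The TATA box TATAAA, searched on both strands, stood in 0 of the 8 and in 10.7% of all windows. The median window of all promoters held 11 CpG. Among the 8, ACTR3 had 13, the fewest, and ARPC2 had 35, the most. The 3 subunits shown as higher and the 1 shown as lower thus shared no arrangement of these boxes.

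ARPC3, which sits on ARP3 in the complex, measured 21.9, 24.9, 67.03 and 44.1 CPM in control replicates 1 to 4. In siG9a it measured 226, 145.9, 161.6 and 166.9 CPM. Every siG9a library was above every control library, and the lowest siG9a value was 145.9 CPM where the highest control value was 67.03 CPM. These values rest on 32 to 109 reads in control and 241 to 439 reads in siG9a. The control mean was 39.5 ± 20.8 CPM and the siG9a mean 175.2 ± 35.3 CPM (SD, n = 4 each), a ratio of 4.43. The ratio of siG9a to control was 10.3 in pair 1, 5.86 in pair 2, 2.41 in pair 3 and 3.78 in pair 4. The spread of these ratios came mainly from the control side, where the coefficient of variation of ARPC3 was 52.7%, against 20.2% in siG9a. The smallest ratio belonged to replicate 3, whose control library had the highest control value of ARPC3.

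**Figure D1:**
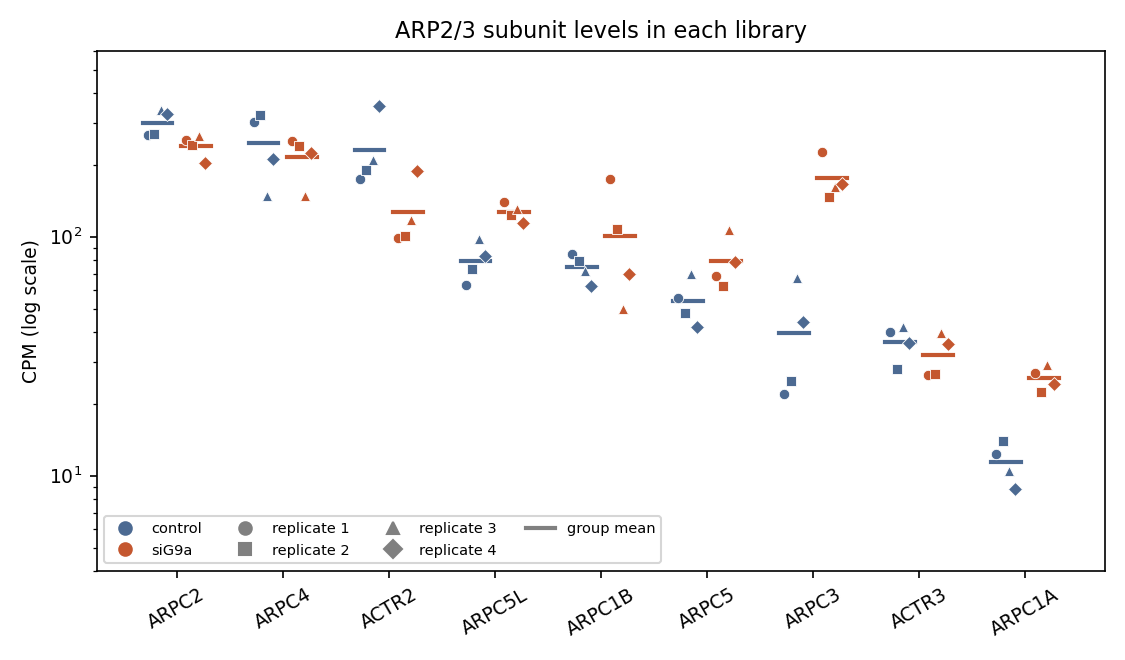
CPM (vertical axis, log scale) of each ARP2/3 subunit (horizontal axis, ordered by control mean) in the 4 control and 4 siG9a libraries, with 1 point per library, shapes for the replicate number and bars for group means. ARPC3 moved from 21.9 to 67.03 CPM in control up to 145.9 to 226 CPM in siG9a, while ACTR2 had a lower mean in siG9a.

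The other 8 subunits split evenly, 4 with a positive and 4 with a negative log2 change. Their median log2 change was 0.064, beside 0.015 over all 15092 genes tested, and single changes ran from −0.86 for ACTR2 to 1.11 for ARPC1A. The median over the 8 was 0.11, 0.15, −0.043 and 0.12 in pairs 1 to 4. It was 0.16 without the replicate 3 libraries and −0.068 without siG9a replicate 1, so its sign rested on single libraries. Replicate numbers in the sample titles are the only ground for pairing libraries. Across genes, deviations from the group means correlated at 0.50 and 0.67 in pairs 1 and 3, but only at 0.10 and 0.13 in pairs 2 and 4. In the paired fit, which has the replicate number as a block, ARPC1A, ARPC5L and ARPC5 rose and ACTR2 fell (limma, adjusted p under the threshold of 0.05). That is 4 of 8, beside 11.4% of all genes tested in that fit, 4.86% higher and 6.52% lower. With a minimum mean of 5 CPM, which every subunit passed, the paired fit called 1653 of 10862 genes. Without the block limma called 0 of the 8, as it called 0% of all genes, while 4 of the 8 had an unadjusted p under 0.05, beside 12.5% of all genes (5 of the 8 in the paired fit, beside 25.5%). Without the block, edgeR also called 0 of the 8, and DESeq2 called ARPC1A. The groups did not overlap for 3 of the 8, beside 7.32% of all genes tested. Their siG9a values were higher for ARPC1A and ARPC5L (2 of 8, beside 3.88%) and lower for ARPC2 (1 of 8, beside 3.45%). All 4 pairs had 1 direction for 6 of the 8 subunits, beside 30.2% of all genes tested. Of these, 3 were higher, beside 14.9%, and 3 lower, beside 15.3%.

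The genes of the actin-related proteins that start the new filament were both lower in 4 of 4 pairs, and only ACTR2 was called in the paired fit. The change of ACTR2 was not tested against that of ACTR3. ACTR2, the ARP2 subunit, measured 174.8, 189.6, 208 and 352 CPM in control replicates 1 to 4 and 99.0, 101.1, 117.0 and 188.7 CPM in siG9a. Replicate 4 was the highest library in both groups, and siG9a replicate 4 overlapped the control range. Within pairs ACTR2 stood at 0.567, 0.533, 0.561 and 0.536 of its control library, the most even change of any subunit over the 4 pairs. The means were 231 ± 81.7 and 126.5 ± 42.3 CPM (SD, n = 4 each), a log2 change of −0.86 ± 0.14 (SE, paired). In limma its adjusted p was 0.000289 when paired and 0.238 otherwise. ACTR2 was called in all 11 fits that had the block, with adjusted p-values of at most 0.00887.

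ACTR3, the ARP3 subunit, measured 39.8, 27.95, 41.8 and 35.8 CPM in control and 26.3, 26.6, 39.4 and 35.6 CPM in siG9a. It was lower in 4 of 4 pairs, with a log2 difference of −0.58 in pair 1 and of −0.084 to −0.011 in pairs 2 to 4. The groups overlapped, and the log2 change of −0.18 ± 0.20 (SE, paired) did not pass the threshold (limma adjusted p = 0.626 with the block, 0.821 without). ACTR3 values rest on 44 to 69 reads a library. Of the reads on ACTR2 and ACTR3 together, ACTR2 took 85.7 ± 4.14% in control and 79.3 ± 3.81% in siG9a (SD, n = 4 each). ACTR3B, a further paralog of ACTR3, had means of 22.05 CPM in control and 17.5 CPM in siG9a and was not called (limma paired adjusted p = 0.519).

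Neither gene of the structural core was called. ARPC2 was the most abundant subunit in both groups, with 267, 269, 338 and 326 CPM in control and 254, 241, 264 and 203.6 CPM in siG9a. All siG9a values lay below all control values, the closest being 263.8 and 266.7 CPM. The log2 change was −0.32 ± 0.14 (SE, paired), and every pair was lower (limma adjusted p = 0.165 when paired and 0.521 otherwise). ARPC4 measured 302, 322, 147.6 and 212 CPM in control and 252, 238, 147.3 and 225 CPM in siG9a. Both replicate 3 libraries had the lowest ARPC4 value of their group, and in that pair they were nearly equal, at 147.6 and 147.3 CPM. The log2 change of ARPC4 was −0.15 ± 0.14 (SE, paired; limma adjusted p = 0.554 with the block and 0.877 without), and its sign turned without siG9a replicate 3, at 0.019.

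The ARPC1 position, where activators make contact, is filled by ARPC1A or ARPC1B. ARPC1A was the least abundant subunit, with 12.3, 14.0, 10.4 and 8.83 CPM in control and 26.8, 22.4, 29.1 and 24.1 CPM in siG9a. The groups did not overlap, and the lowest siG9a value was 22.4 CPM where the highest control value was 13.98 CPM. These values rest on 17 to 23 reads in control and 37 to 52 reads in siG9a. The means were 11.4 ± 2.24 and 25.6 ± 2.97 CPM (SD, n = 4 each), a ratio of 2.25. ARPC1A rose in the paired fit by a log2 change of 1.11 ± 0.26 (SE; limma adjusted p = 0.00580 with the block, 0.131 without). It was called in all 11 fits with the block, at adjusted p-values up to 0.0442, the value without replicate 3. In GENCODE 29 a read-through gene of the same strand covers the 3′ end of ARPC1A, so reads of those genes cannot be told apart.

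ARPC1B was the more abundant form, with 84.3, 79.0, 72.0 and 62.3 CPM in control and 174.9, 107.7, 49.7 and 70.0 CPM in siG9a. The control libraries lay close together, while the siG9a libraries spread from below to above all of them. The pair ratios were 2.07, 1.36, 0.690 and 1.12, with replicate 3 as the pair in which ARPC1B was lower. The log2 change of 0.28 ± 0.20 (SE, paired) did not pass the threshold (limma adjusted p = 0.396 with the block, 0.788 without), and it turned to −0.035 without siG9a replicate 1. Without siG9a replicate 3 it was 0.56. PDAP1, a gene of the opposite strand, overlaps the 3′ end of ARPC1B and measured 85.3 CPM in control and 157.8 CPM in siG9a on average. Whether counting used strand is not stated, so reads of these overlapping genes cannot be told apart. ARPC1A took 12.4% to 15.03% of the reads on both forms in control. In siG9a it took 13.3% (95% Wilson interval 10.3% to 17.0%), 17.2% (12.8% to 22.8%), 37.0% (29.4% to 45.3%) and 25.6% (19.5% to 32.8%) in replicates 1 to 4. The share was thus inside the control range in siG9a replicate 1, where both forms were high, and highest in replicate 3, where ARPC1B was low.

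ARPC5 and its alternative ARPC5L, the position that tethers ARP2, were both higher. ARPC5L measured 63.1, 72.9, 97.8 and 83.1 CPM in control and 139.3, 123.5, 130.7 and 113.5 CPM in siG9a. The groups did not overlap, and the pair ratios were 2.21, 1.69, 1.34 and 1.37. The means were 79.2 ± 14.8 and 126.8 ± 10.9 CPM (SD, n = 4 each). ARPC5L rose in the paired fit by a log2 change of 0.69 ± 0.16 (SE; limma adjusted p = 0.00714 with the block, 0.210 without). Its paired call was lost without pair 1 and without pair 2, with limma adjusted p-values up to 0.0719.

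ARPC5 measured 55.5, 48.0, 69.5 and 42.1 CPM in control and 68.6, 62.3, 106.2 and 78.0 CPM in siG9a. The replicate 3 library was the highest of its group in both conditions, and the groups overlapped. ARPC5 rose in the paired fit by a log2 change of 0.54 ± 0.17 (SE; limma adjusted p = 0.0456 with the block, 0.390 without), higher in 4 of 4 pairs. This was the weakest of the calls: it was lost in DESeq2, with median-ratio scaling, with a pseudocount of 0.1 and when any pair was left out, with adjusted p-values up to 0.160. Of the reads on both forms ARPC5L took 59.6 ± 5.45% in control and 62.0 ± 5.73% in siG9a (SD, n = 4 each), so that the means lay closer together than the replicates.

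**Figure D2:**
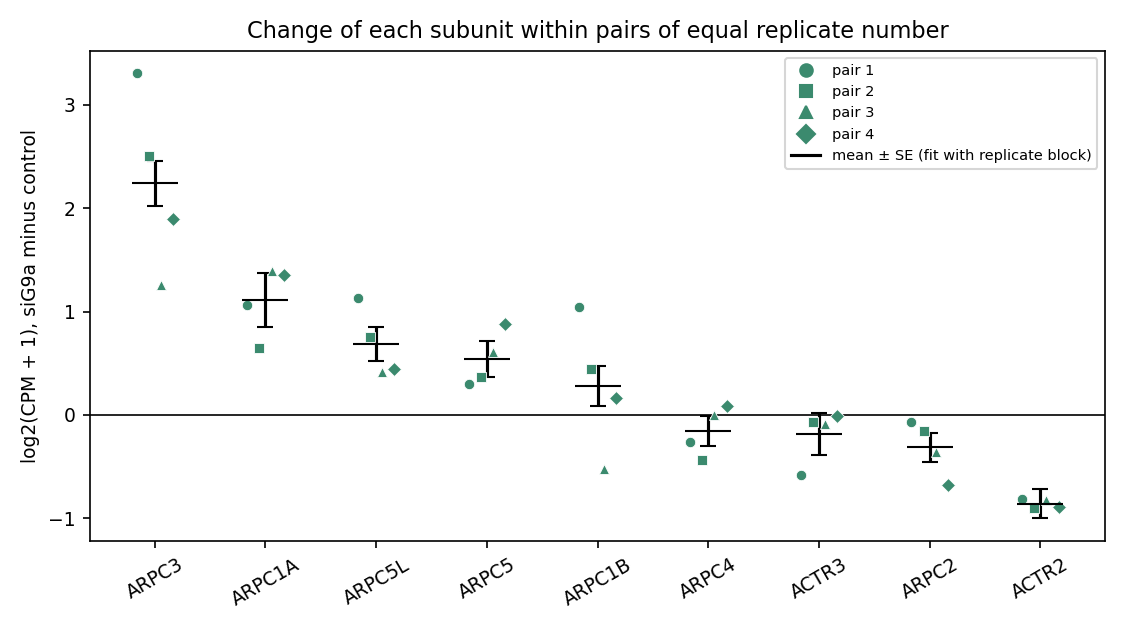
Difference in log2(CPM + 1), siG9a minus control (vertical axis), for each subunit (horizontal axis) in the 4 pairs of equal replicate number, with the mean and its standard error from the paired fit in black. ARPC3 ranged from 1.26 to 3.31 over the pairs, ARPC1A from 0.64 to 1.40, and ACTR2 lay between −0.90 and −0.81.

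The share of ARPC3 in the subunit reads restates the values that chose the complex and is given as a description. The sum over all 9 was 1072 ± 64.7 CPM for control and 1121 ± 100.1 CPM for siG9a (SD, n = 4 each), higher in 2 pairs and lower in 2. The 8 subunits other than ARPC3 summed to 986 to 1122 CPM in control and 883 to 1040 CPM in siG9a. ARPC3 took 2.15%, 2.38%, 6.37% and 3.78% of all subunit reads in control replicates 1 to 4. In siG9a it took 17.9%, 13.6%, 15.5% and 15.1%. The highest control share, in replicate 3, had a 95% Wilson interval of 5.31% to 7.62%, and the lowest siG9a share, in replicate 2, one of 12.1% to 15.3%. The mean share was 3.67 ± 1.94% in control and 15.5 ± 1.75% in siG9a (SD, n = 4 each).

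In control, the order of the levels was ARPC2, ARPC4 and ACTR2 at means of 231 to 299.9 CPM, then ARPC5L, ARPC1B, ARPC5, ARPC3 and ACTR3 at 36.3 to 79.2 CPM, and ARPC1A last. Only the steps from ACTR2 to ARPC5L and from ACTR3 to ARPC1A separated neighbours whose ranges did not overlap. In siG9a ARPC3 stood next after ARPC2 and ARPC4, and its lowest library was above the highest ARPC5L library (145.9 against 139.3 CPM). ACTR2 came after ARPC5L there, and their ranges overlapped.

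**Figure D3:**
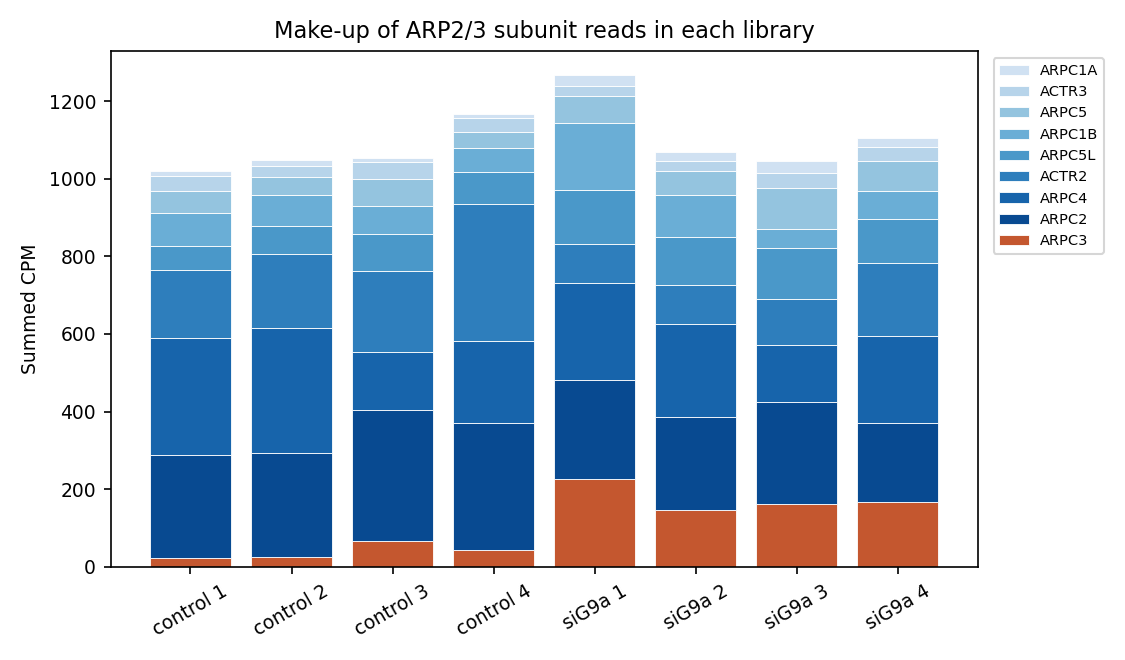
Summed CPM (vertical axis) of the 9 subunits in each of the 8 libraries (horizontal axis), with ARPC3 at the base in orange and the other subunits stacked above in blue. The orange segment takes 2.15% to 6.37% of the bar in control and 13.6% to 17.9% in siG9a, while the height of the bars overlaps between the groups.

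The reads counted for ARPC3 were also set beside other genes of its locus. In RefSeq's gene order the nearest measured genes were ANAPC7, ATP2A2 and IFT81 on one side and GPN3, RPL31P49 and FAM216A on the other. None was called in either fit, where limma called 11.4% of all genes tested when paired and 0% otherwise. The closest, ANAPC7 (a subunit of the anaphase-promoting complex) and GPN3, had log2 changes of −0.21 ± 0.18 and 0.31 ± 0.28 (SE, paired), with limma paired adjusted p-values of 0.502 and 0.533. FAM216A had the largest change of the 6, 0.45 ± 0.21 (SE), higher in 3 of 4 pairs (limma paired adjusted p = 0.164). A gene that overlaps ARPC3 on its own strand in GENCODE 29 is listed at 0 in every library. So are the 5 pseudogenes named after a member, 3 of ARPC3 and 2 of ACTR3. The overlapping gene covers the 3′ end of ARPC3, and how reads shared by both were counted is not stated.

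Over the 8 libraries, the gene whose log2(CPM + 1) was most like that of ARPC3 among all genes tested was ARPC5L (Pearson r = 0.983). It was followed by NCEH1 (r = 0.977), CTB-31O20.2 (r = 0.977), STIL (r = 0.976), which serves in centriole duplication, and RNF169 (r = 0.976). NCEH1 rested on 0 to 3 reads in control and 6 to 16 in siG9a, and CTB-31O20.2 on 1 to 4 and 6 to 12. Each of the 5 had all siG9a values above all control values, so r largely restates the split between the groups. ARPC5L was picked for this likeness, so an order of libraries shared with ARPC3 is no separate result. Both had their highest control value in replicate 3 and their lowest in replicate 1. In siG9a, replicate 1 was highest for both, while the lowest was replicate 2 for ARPC3 (145.9 CPM) and replicate 4 for ARPC5L (113.5 CPM). Among the other subunits, r to ARPC3 was 0.81 for ARPC1A, 0.71 for ARPC5, 0.28 for ARPC1B and between −0.26 and −0.62 for ACTR3, ARPC4, ARPC2 and ACTR2.

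Other genes of the actin network were taken from 9 lists with 79 genes, of which 78 matched a row and 69 were tested. Of the lists, 5 hold genes that act on the complex: activators, WAVE and WASH subunits, upstream genes and inhibitors. The others hold ACTR3 paralogs, genes of actin and its turnover, nucleators that work without the complex and actin-related proteins of other complexes. In the paired fit 8 of the 69 rose and 9 fell, 24.6% of those tested, beside 11.4% of all genes tested. In the 5 lists that act on the complex 4 of 35 rose and 6 fell. With a minimum mean of 5 CPM, the paired fit called 16 of 60 list genes, beside 1653 of 10862 genes. Without the block limma and edgeR called 0 of the 69, and DESeq2 called 3, all lower. The median log2 change of the 69 was 0.051, with 36 positive and 33 negative changes. With both replicate 3 libraries left out, 8 of the 17 paired calls held, WASF2, BRK1, CORO1C, CFL1, CAP1, ACTG1, CAPZB and ACTR1A. The other 9 were lost, JMY, CTTN, WIPF1, WIPF2, RAC3, CORO1B, GMFB, PFN2 and DSTN, with limma adjusted p-values from 0.0516 for GMFB to 0.283 for RAC3. Only the calls of CORO1C and CFL1 held whichever of the 4 pairs was left out. CAPZB, a capping protein subunit, and PFN2, a profilin, are named here after their values were seen.

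The activators, which switch the complex on, split: of 7 tested, 1 rose and 2 fell in the paired fit, beside 11.4% of all genes tested. DESeq2 with the block called 1 of the 7, and 969 of 15091 genes tested. WASF2, a WAVE protein and the most abundant activator, fell from 627 ± 178 to 410 ± 61.3 CPM (SD, n = 4 each), a log2 change of −0.57 ± 0.14 (SE; limma adjusted p = 0.00954 with the block, 0.363 without). JMY, a nucleation factor that also serves as a p53 cofactor, fell from 34.9 to 20.4 CPM (limma paired adjusted p = 0.0197). CTTN, or cortactin, which stabilises branches, rose from 105.1 to 144.3 CPM with no overlap between the groups (limma paired adjusted p = 0.0483). Of the other WAVE complex subunits, 1 of 7 was called in the paired fit, beside 11.4% of all genes tested. That was BRK1, the smallest WAVE subunit, which rose from 82.6 ± 7.19 to 133.4 ± 24.1 CPM (SD, n = 4 each; limma paired adjusted p = 0.00668). ABI2, the most abundant of this list, had means of 128.1 and 156.3 CPM and was not called (limma paired adjusted p = 0.228). Of the 5 WASH complex genes limma called 0 in either fit, beside 11.4% of all genes tested in the paired fit. There were 0 at an unadjusted p under 0.05, and edgeR and DESeq2 called 0. FAM21A (WASHC2A), FAM21C (WASHC2C), CCDC53 (WASHC3) and KIAA0196 (WASHC5) rested on at most 22 reads in any library. WASHC1, in the list of activators, had no row. KIAA1033 (WASHC4) and CCDC53 (WASHC3) led that list by level at control means of 45.7 and 5.11 CPM.

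Upstream of the activators, 1 of 10 rose and 2 fell in the paired fit, beside 11.4% of all genes tested. With the block, DESeq2 called 1 of the 10. WIPF2, which binds WASP-family proteins, rose from 90.7 ± 12.3 to 139.8 ± 14.8 CPM (SD, n = 4 each; limma paired adjusted p = 0.00801), while its relative WIPF1 fell from 25.3 to 13.6 CPM (limma paired adjusted p = 0.0426). The GTPase gene RAC3 fell from 62.5 to 30.2 CPM, in 3 of 4 pairs (limma paired adjusted p = 0.0397). RAC1, the most abundant gene of the list, had means of 449 and 530 CPM, was higher in 4 of 4 pairs and was not called (limma paired adjusted p = 0.297).

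Of the inhibitors and debranching factors, 1 of 6 tested rose and 2 fell in the paired fit, beside 11.4% of all genes tested. With the block, DESeq2 called 2 of the 6. CORO1C, a coronin, fell from 76.2 ± 21.8 to 38.8 ± 7.17 CPM, and GMFB, which takes branches apart, from 23.7 ± 1.56 to 11.01 ± 0.548 CPM (SD, n = 4 each). Neither overlapped between the groups, and the limma paired adjusted p-values were 0.00103 and 0.00961 (0.175 and 0.131 without the block). CORO1B, another coronin, rose from 24.1 to 38.4 CPM (limma paired adjusted p = 0.0265).

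Among the genes of actin and its turnover, 4 of 11 rose and 2 fell in the paired fit, beside 11.4% of all genes tested. With the block, DESeq2 called 4 of the 11. CFL1, or cofilin, which severs filaments, fell from 385 ± 30.2 to 184.7 ± 43.8 CPM (SD, n = 4 each). Its log2 change was −1.08 ± 0.15 (SE; limma adjusted p = 2.39e-05 with the block, 0.0898 without), and the groups did not overlap. CAP1, which helps cofilin recycle actin, fell from 323 to 203.2 CPM (limma paired adjusted p = 0.00269). ACTG1, cytoplasmic gamma-actin, rose from 1238 ± 235 to 1921 ± 583 CPM (SD, n = 4 each; limma paired adjusted p = 0.0142). DSTN, a relative of cofilin named after its values were seen, rose from 150.8 to 213.6 CPM (limma paired adjusted p = 0.0292), against the direction of CFL1.

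**Figure D4:**
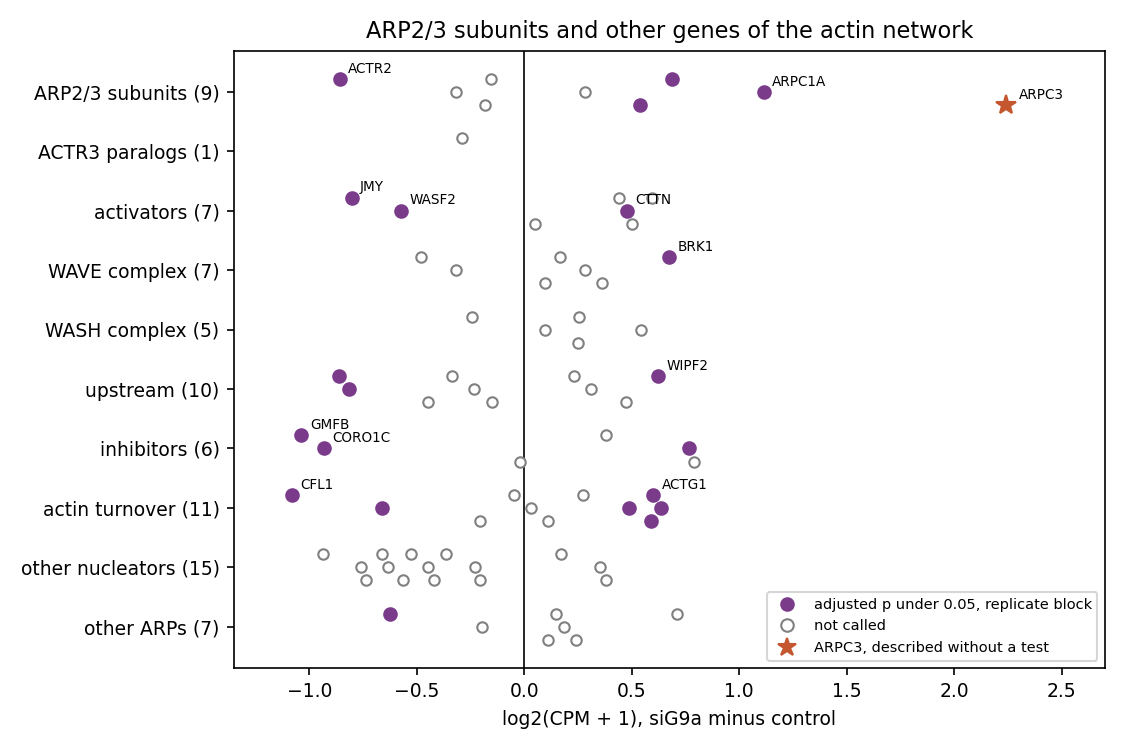
Log2 change, siG9a minus control (horizontal axis), of each tested gene in the subunit list and the 9 actin network lists (vertical axis, number tested in brackets), with filled points for genes called in the paired fit and a star for ARPC3. Filled points lie on both sides of 0 in the subunits and in 4 of the 9 lists, and ARPC3, at 2.24, is beyond every other point.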

How the data were processed

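The data are 8 libraries of Rh41 cells, 4 in each group. The deposited table holds, per the file headers, CPM for 60234 genes, which the authors scaled to each library's total of assigned reads. TRIzol RNA was made into QuantSeq 3′ libraries and sequenced in single-end mode, per the labels' protocols. The submitters' processing notes name FastQC 0.11.8, Trim Galore, STAR 2.5.0a, HTSeq 0.8.0, edgeR 3.28 and both GRCh38 and hg19, with no role or order. Which build and annotation gave the values, and whether counting used strand, are not given in the sources used here, so no gene coordinates are taken from the table.

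Every member symbol stood on 1 row. EHMT2 stood on 7 rows, of which the row with the highest mean CPM was used. Each CPM value above 0 (100%) equalled a whole number of reads to within rounding, so reads were recovered. Main test: limma 3.58.1 (R 4.3.3) on log2(CPM + 1), eBayes with trend, two-sided, with the group as the only term, on the 15092 genes whose mean reached 1 CPM. P-values were adjusted by Benjamini-Hochberg over all of them, with a threshold of 0.05. The paired fit adds the replicate number as a block. The numbers stand in the sample titles, which are the only ground for the pairing. Deviations from the group means correlated across genes at 0.50, 0.10, 0.67 and 0.13 for pairs 1 to 4. Libraries of pairs 2 and 4 were thus only weakly alike. Control replicate 2 correlated best with siG9a replicate 4. The scripts were tested on simulated reads.

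The members, gene lists, markers and naming rule were chosen with earlier results of these data known. The rule names all members, EHMT2, in each list at most the 3 genes with the smallest adjusted p under 0.05 in either fit and the 2 with the highest mean CPM, the 5 genes most like ARPC3 in Pearson correlation over the 8 libraries, and the 3 nearest genes with at least 1 CPM on each side of ARPC3 in RefSeq's gene order. Overlaps between genes came from GENCODE 29. Intervals on shares are 95% Wilson intervals and, like read numbers, cover counting error only. Alternatives were other pseudocounts, filters and scalings, edgeR 4.0.16 and DESeq2 1.42.0 on recovered reads, the block, and leaving out libraries or pairs.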

Additional observations from a re-analysis of the deposited data

Results flagged for a closer look

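The share of ARPC1A among the reads on ARPC1A and ARPC1B in control replicate 2 was 15.03%, while the remaining controls had 12.4% to 12.8%. It stood far from the others by Dixon's ratio (0.864, above the 95% critical value for 4 samples). Of the 28 groups of 4 libraries examined 1 was marked, where chance marks about 1 in 20. The share rests on 23 of 153 reads, with a 95% Wilson interval of 10.2% to 21.5% that covers the other control values.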

How the results depend on the processing

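The replicate block moved the results most. Without it, limma called 0 genes, 0 subunits and 0 genes of the 9 actin network lists. With it, limma called 1717 genes, 5 subunits and 17 list genes. Other alternatives are given in the same order. Each subunit count above 0 includes ARPC3, whose call is no test because its values chose the complex, and a count of 1 subunit is ARPC3 alone. EdgeR on recovered reads gave 0 of each, or 1709, 5 and 16 when blocked. DESeq2 gave 291, 2 and 3, or 969, 4 and 9 when blocked. With the block, leaving out pair 1 gave 972, 3 and 9, pair 2 gave 653, 3 and 5, pair 3 gave 1180, 4 and 8, and pair 4 gave 1392, 4 and 9. Also with the block, median-ratio scaling gave 1692, 4 and 16, quantile normalization 1688, 5 and 17, a pseudocount of 0.1 1363, 4 and 13, and a minimum mean of 5 CPM 1653, 5 and 16. The pairs 1, 2 and 4 and these last 4 were chosen after seeing the data. Without the block, testing all genes with any read gave 18 genes and 1 subunit, and leaving out replicate 3 gave 415, 1 and 1. Leaving out 1 library gave 0 to 300 genes, 0 to 1 subunits and 0 to 1 list genes, with the 300 genes called without control replicate 3.

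The median log2 change of the 8 subunits other than ARPC3 was 0.16 without replicate 3, in both fits, and −0.068 to 0.20 when 1 library was left out. The log2 change of ARPC1B lay between −0.035 (without siG9a replicate 1) and 0.56 (without siG9a replicate 3) when 1 library was left out, and that of ARPC4 between −0.38 (without control replicate 3) and 0.019 (without siG9a replicate 3). The other 7 subunits kept their direction in all 28 alternatives. The cause of these differences was not tested. At these depths ARPC1A rested on 17 to 52 reads a library.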

Other observations

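None of the nucleators that build unbranched filaments without the ARP2/3 complex was called. Of 15 formin and tandem-monomer nucleator genes tested, 12 had a negative log2 change, beside 48.9% of all genes tested. Their median log2 change was −0.45, beside 0.015 over all genes tested. In the paired fits 0 of the 15 passed the adjusted threshold in limma, edgeR or DESeq2, beside 11.4% of all genes tested in limma. An unadjusted p under 0.05 was reached by 4, 4 and 1 of the 15 (25.5% of all genes tested did in limma). Without the block 0 did in each tool. The most abundant, DIAPH1 and DAAM1, had means of 89.0 and 75.7 CPM in control and 98.0 and 65.1 CPM in siG9a.

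Actin-related proteins of other complexes gave 1 call among 7 genes tested in the paired limma fit, beside 11.4% of all genes tested, and 0 in DESeq2 with the block (1 of the 7 at an unadjusted p under 0.05). ACTR1A, the main actin-related protein of dynactin, fell from 89.1 ± 17.9 to 58.6 ± 19.7 CPM (SD, n = 4 each), lower in 3 of 4 pairs (limma paired adjusted p = 0.0294, 0.346 without the block). Its paired call was lost without pair 1, 2 or 4, with limma adjusted p-values up to 0.163. ACTR10, also of dynactin, had means of 53.7 and 62.7 CPM and was not called (limma paired adjusted p = 0.489).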
